A study of Rattus norvegicus with 6 samples.

Results

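Immediate-early genes are those that cells transcribe within minutes of a stimulus, before any new protein is made. The set described here also holds other acute stimulus genes, and immediate-early is used below as a short name for all of them. The 37 genes described here were chosen by name, for belonging to the AP-1, Egr, Nr4a, Klf, Dusp, Gadd45 and related families of acute response genes, by a rule that uses no measured value. The array carried a probe set under the symbol of 35 of them, among 11237 genes with a detectable signal, and Fosb and Btg2 had no probe set under their symbols. All 35 passed the filter on low signals, with mean log2 signals from 5.38 to 9.80 and no array at or below the limit of 5.

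The samples were left atria of adult male Sprague-Dawley rats weighing 250-320 g. Rapid atrial pacing (RAP) at a cycle length of 70 ms for 48 h was compared with control pacing (Con) at 140 ms for the same time, with 3 rats in each group. All rats were awake during pacing and carried an electrode implanted on the right atrium. All drank atenolol, a blocker of the beta-1 adrenergic receptor. After pacing, all were injected with heparin and minutes later sacrificed under deep anaesthesia, and the atria were taken. The part of these last steps in the values was not tested. Ventricular rate was similar in both groups, since the ventricles followed only every other atrial beat during RAP. Each RAP rat had a control rat with the same pair number, operated on and paced alongside it, and only pairs with high RNA quality were hybridised. The control group was itself paced, and no unpaced atria were analysed here, so each value below compares the pacing rates. One Affymetrix Rat Gene 1.0 ST array was run per atrium, and the values are log2 signals after robust multi-array averaging.

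Most immediate-early genes are silent or low in a resting cell and are switched on by transcription factors already present in it. Serum response factor with its Ets-family partners acts through the serum response element, and CREB, the target of cAMP and calcium signalling, acts through the cAMP response element. The proteins made include transcription factors such as Fos, Jun and Egr1, which turn on a later wave of genes, and brakes such as the Dusp phosphatases and Zfp36, which end the response. In the heart the group is known for its quick reaction to stretch, adrenergic drive and injury.

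The arrays carried high atrial signals, with Nppa (atrial natriuretic factor) between 13.40 and 13.59 and Myl7 (atrial regulatory light chain) between 13.61 and 13.76 on all 6 arrays. Between 62.57% and 63.77% of probe sets lay above the limit of 5 on each array. Arrays of both groups stood apart in marker lists. On Con 3 the mean of 5 red blood cell genes lay 1.89 above its 6-array mean, and that of 7 ventricular muscle genes lay 1.3 above. On Con 2 the means of 7 neutrophil, 11 macrophage and 7 lymphocyte genes lay 1.16, 1.01 and 0.78 above. The mean deviation of 7 adipocyte genes was 1.28 on RAP 3, and that of 8 mast cell genes was -1.22 on RAP 2. When a single array was left out its pair was broken, so those fits had no pair block and changed both the samples and the block. In whole atria, fewer cells of a type and less RNA per cell cannot be told apart.

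These upstream regions show the control elements by which these genes are usually known. They hold the 250 bases before the annotated start of Egr1, Egr2, Dusp5, Zfp36 and Jund, from RefSeq on the GRCr8 assembly, read 5′ to 3′ on the strand of the gene. Capitals mark matches to the serum response element in Egr1, Egr2, Dusp5 and Zfp36, to the Egr element (GCGTGGGCG or GCGGGGGCG) in Zfp36 and Jund, and to the cAMP response element (TGACGTCA) in Jund. 
Egr1, chr18:26736828-26737077, + strand: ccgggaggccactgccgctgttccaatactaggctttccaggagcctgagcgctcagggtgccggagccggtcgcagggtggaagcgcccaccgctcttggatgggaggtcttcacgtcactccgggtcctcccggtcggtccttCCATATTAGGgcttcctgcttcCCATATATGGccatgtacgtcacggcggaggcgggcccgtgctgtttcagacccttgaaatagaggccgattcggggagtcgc
Egr2, chr20:21054442-21054691, - strand: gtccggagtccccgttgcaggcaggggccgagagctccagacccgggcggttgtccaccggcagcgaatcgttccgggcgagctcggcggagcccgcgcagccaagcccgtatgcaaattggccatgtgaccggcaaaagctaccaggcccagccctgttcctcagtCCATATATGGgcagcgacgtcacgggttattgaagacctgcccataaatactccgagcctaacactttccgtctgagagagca
Dusp5, chr1:262543524-262543773, + strand: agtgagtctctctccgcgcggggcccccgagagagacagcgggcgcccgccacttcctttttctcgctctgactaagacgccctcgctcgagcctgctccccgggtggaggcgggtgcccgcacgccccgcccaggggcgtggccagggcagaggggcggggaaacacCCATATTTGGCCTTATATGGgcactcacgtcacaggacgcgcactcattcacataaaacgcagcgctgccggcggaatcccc
Zfp36, chr1:92799109-92799358, - strand: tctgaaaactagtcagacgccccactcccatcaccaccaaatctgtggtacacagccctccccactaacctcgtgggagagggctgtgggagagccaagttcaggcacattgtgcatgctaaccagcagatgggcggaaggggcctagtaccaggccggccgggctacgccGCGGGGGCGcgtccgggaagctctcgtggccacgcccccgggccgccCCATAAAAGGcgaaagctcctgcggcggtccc
Jund, chr16:18769772-18770021, - strand: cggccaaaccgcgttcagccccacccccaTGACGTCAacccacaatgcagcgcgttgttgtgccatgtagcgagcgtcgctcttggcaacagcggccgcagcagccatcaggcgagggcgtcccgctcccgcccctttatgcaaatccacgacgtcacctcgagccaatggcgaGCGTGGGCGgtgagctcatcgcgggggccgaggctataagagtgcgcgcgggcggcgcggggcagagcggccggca

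Both strands were searched from 250 bases before to 50 after each start. RefSeq promoters were found for 26 of the 37 genes, and the other 11 were Fos, Jun, Atf3, Egr3, Ier3, Nr4a3, Klf2, Klf10, Myc, Trib1 and Arc. A match to at least 1 element was present in 14 of the 26. The serum response element was present in 5 of them (19.2%), against 1.21% of the 9288 tested genes with a promoter and 1.64% of all 27457 promoters. These 5 were Egr1, Egr2, Klf6, Dusp5 and Zfp36. Egr1 carried it at bases -105 to -96 and again at -83 to -74 relative to its start. Dusp5 also carried it in 2 adjoining copies, at bases -82 to -73 and -72 to -63. The cAMP response element was present in 5 (19.2%), against 2.9% of tested genes and 1.89% of all promoters, and these were Jund, Ier2, Btg2, Dusp1 and Maff. The Egr element was present in 7 (26.9%), against 5.77% of tested genes and 3.3% of all promoters, and these were Fosl2, Jund, Nr4a1, Dusp2, Zfp36, Maff and Sik1. The AP-1 element (TGACTCA or TGAGTCA) was found in none of the 26 and in 3.6% of tested genes. The Ets element (CCGGAAGT) was found in none of the 26 and in 7.38% of tested genes. The MEF2 element was also found in none, against 0.463% of tested genes. No match overlapped another. These are matches of letters in a fixed window and do not show binding.

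**Figure D1:**
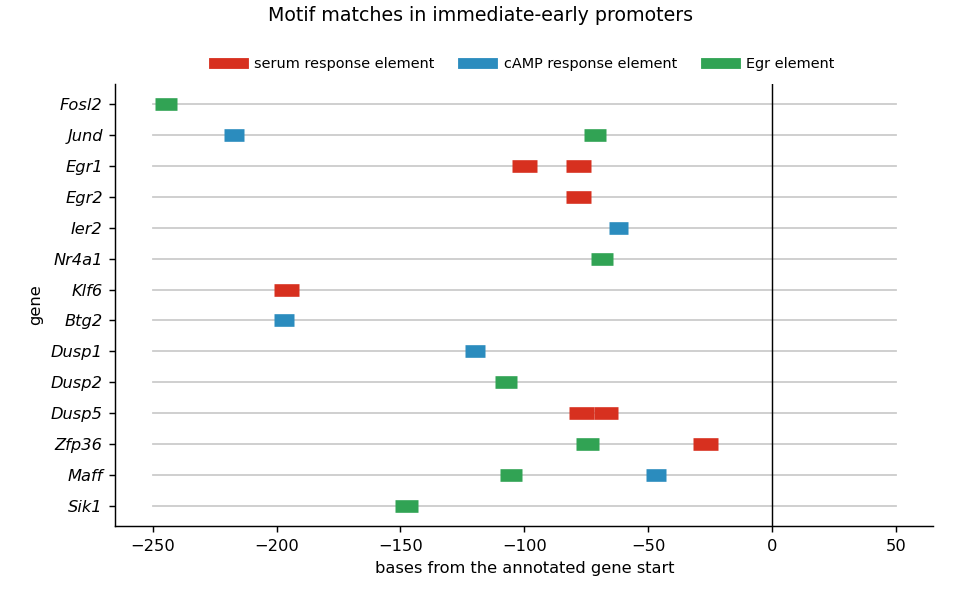
Positions of motif matches in the promoters of the 14 immediate-early genes with at least 1 match, in bases from the annotated gene start on the horizontal axis, with 1 line per gene. Red blocks are serum response elements, blue blocks cAMP response elements and green blocks Egr elements; Egr1 and Dusp5 each carry 2 serum response elements upstream of the start.

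After 48 h of RAP, 5 of the 35 measured genes were lower and 1 was higher than in the control atria. A gene was called when its limma p, unadjusted, was below 0.05 and its fold change was above 1.3. The genes that fell were Fosl2, Jun and Atf3 of the AP-1 group, Egr1, and Ier3. The gene that rose was Rgs2. Over all 11237 genes tested, 3.45% were called lower and 2.94% higher, so that 14.3% and 2.86% of the immediate-early genes stood beside those shares. None of these calls passed Benjamini-Hochberg adjustment over all 19907 probe sets kept. The smallest adjusted p of any probe set was 0.756, and 0 members had an adjusted p below 0.05. An unadjusted p below 0.05 was found for 7 of the 35 measured members, a larger share than the 6.89% of all genes.

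The fitted change was below 0 in 27 of the 35 genes (77.1%), against 51.2% of all genes, and its median was -0.32 on the log2 scale, against -0.01 over all genes. The pairs were unequal, and the median of the pair differences was -0.39 for the first, -0.29 for the second and -0.04 for pair 3. Lower signals in the RAP atrium were found for 20, 24 and 21 genes in pairs 1, 2 and 3, which is 57.1%, 68.6% and 60.0%, against 50.3%, 51.8% and 48.3% of all genes. The RAP signal was lower in all 3 pairs for 9 genes (25.7%), against 14.1% of all genes, and higher in all 3 for Dusp5, Maff and Rgs2 (8.57%), against 14.3%. The 9 were Fos, Fosl2, Jun, Jund, Atf3, Egr1, Nr4a1, Ier3 and Myc. Another 8 (22.9%, against 21.8% of all genes) were lower in pairs 1 and 2 and higher in pair 3, namely Junb, Nr4a3, Dusp1, Trib1 and all 4 Klf genes. The groups did not overlap for Fosl2, Jun, Jund and Ier3, each with every RAP array below every control array, which is 11.4% against 7.84% of all genes. No member had every RAP array above every control array, a pattern shown by 7.57% of all genes.

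**Figure D2:**
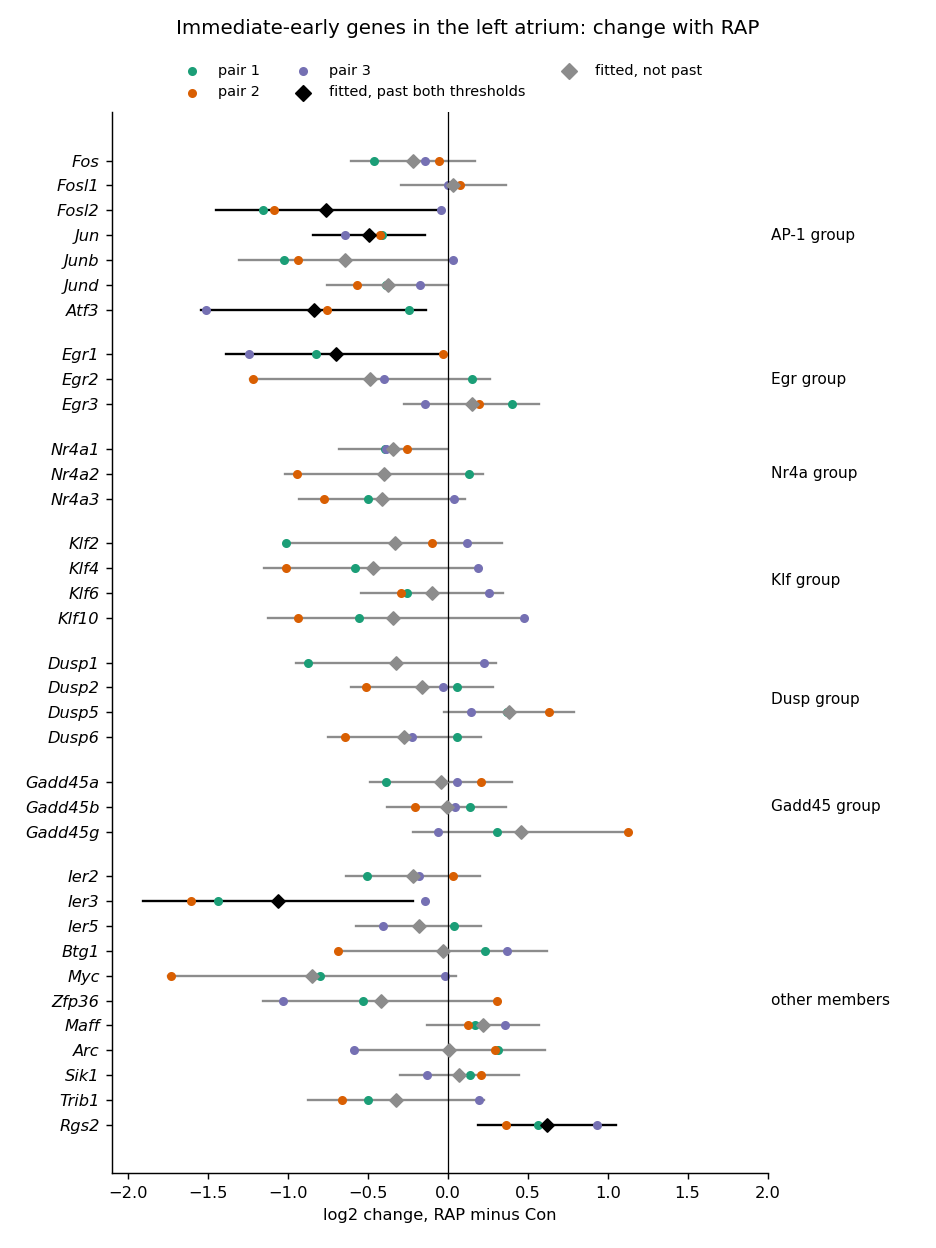
Change of each of the 35 measured immediate-early genes with RAP, as log2 RAP minus control on the horizontal axis, ordered by family. Coloured points are the 3 pairs, diamonds the fitted changes and bars their 95% intervals; the 6 black diamonds passed both thresholds, 5 of them left of 0 and Rgs2 right of 0.

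AP-1 is a dimer of Fos, Jun and Atf family proteins that binds the AP-1 element, and the Jun proteins are its usual common partners. Of the 7 measured genes, Jun, Fosl2 and Atf3 fell, none rose, and the median change was -0.49. The mean of the group lay above its 6-array mean on all control arrays, by 0.10, 0.34 and 0.27, and below it on all RAP arrays, at -0.42, -0.20 and -0.09. Of the 7, 5 were lower in all pairs.

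Jun encodes the best studied AP-1 subunit. Its log2 signal was 9.31, 9.25 and 9.45 in Con 1 to 3 and 8.90, 8.82 and 8.81 in RAP 1 to 3. The groups did not overlap, and the RAP values lay closer together than the control values. The means were 9.34 ± 0.10 on the control arrays and 8.84 ± 0.05 on the RAP arrays (SD, n = 3 each). The change of -0.49 (SE 0.13, 95% interval -0.84 to -0.14) left Jun at 71.0% of the control level, with a limma p of 0.016 and a Benjamini-Hochberg adjusted p of 0.76. Pair by pair it was -0.41, -0.43 and -0.64, the most even fall of the group. It stayed past both thresholds in 16 of 18 alternative analyses. It missed without pair 1 (change -0.53, limma p 0.081) and without pair 2 (change -0.53, limma p 0.052).

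Fosl2 (Fra-2) is a Fos family partner of Jun. Its signal was 9.70, 9.28 and 8.62 in Con 1 to 3 and 8.55, 8.19 and 8.58 in RAP 1 to 3. RAP 3 lay just under Con 3, while the differences in the other pairs were over 1. The change was -0.76 (SE 0.27, 95% interval -1.45 to -0.07, limma p 0.037, adjusted p 0.76), which is 59.0% of the control level. A further Fosl2 probe set gave -0.78 (SE 0.26, limma p 0.032). The fall missed the thresholds in 7 of 18 alternatives, among them without Con 1 (change -0.51) and without RAP 2 (change -0.64), both fits without the block.

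Atf3 is a stress-induced factor that pairs with Jun proteins and often represses. It had 6.88, 7.68 and 8.55 in Con 1 to 3 and 6.63, 6.92 and 7.04 in RAP 1 to 3. The control arrays spread widely, Con 3 being the highest and Con 1 within the RAP range. The change was -0.84 (SE 0.27, 95% interval -1.54 to -0.14, limma p 0.028, adjusted p 0.76), or 55.9% of control. Without the pair block alone the limma p was 0.072 and Atf3 was not called. With Con 3 also left out the change was -0.41, and without pair 3 in the blocked fit it was -0.50, not called. With array weights it was -0.37, not called.

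The other Jun proteins had lower RAP means but missed the thresholds. Junb, which opposes Jun at many targets, had 8.40, 9.02 and 8.34 in Con 1 to 3 and 7.38, 8.08 and 8.37 in RAP 1 to 3, a change of -0.65 (95% interval -1.30 to 0.01, limma p 0.053). RAP 1 and RAP 2 lay far below their controls, and RAP 3 lay level with Con 3. Without pair 3 Junb passed, at -0.98, while without pair 1 it was -0.46 and without RAP 1 and the block -0.36, neither called. Jund, the most steadily expressed Jun protein, had 8.88, 9.08 and 8.78 in Con 1 to 3 and 8.49, 8.52 and 8.60 in RAP 1 to 3. Its groups did not overlap, and its change of -0.38 (95% interval -0.76 to 0.00, limma p 0.05) sat just outside the called set, with p before rounding just over its threshold and the fold just under.

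Fos, the classical activity marker and partner of Jun, had 6.81, 7.39 and 7.48 in Con 1 to 3 and 6.35, 7.34 and 7.34 in RAP 1 to 3. The groups overlapped, and the change of -0.22 had a 95% interval of -0.61 to 0.17. Fosl1 (Fra-1) ranged from 5.33 to 5.45, close to the filter limit of 5, with a change of 0.03 (SE 0.13).

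The Egr genes encode zinc-finger factors that bind the Egr element and link growth signals to later transcription. Egr1 fell, with 8.86, 9.06 and 9.36 in Con 1 to 3 and 8.04, 9.03 and 8.11 in RAP 1 to 3. RAP 1 and RAP 3 lay below all control arrays, and RAP 2 was level with Con 2. The change was -0.70 (SE 0.26, 95% interval -1.39 to -0.01, limma p 0.047, adjusted p 0.76), or 61.5% of control. Egr1 was called in 9 of 18 alternatives, and its change was -0.64 without pair 1, -0.43 without pair 3 and, with no block, -0.57 without Con 3, each not called. Its upstream region holds both serum response elements printed above.

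Egr2 and Egr3 gave no call. Egr2 had 5.13, 6.26 and 5.91 in Con 1 to 3 and 5.28, 5.05 and 5.51 in RAP 1 to 3, with pair differences of 0.15, -1.22 and -0.40 and a change of -0.49 (SE 0.29). Con 2 was the highest and RAP 2 the lowest array. Egr3 had pair differences of 0.40, 0.20 and -0.14 and a change of 0.15 (SE 0.16).

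Nr4a1 (Nur77), Nr4a2 (Nurr1) and Nr4a3 (NOR-1) are orphan nuclear receptors induced by calcium, cAMP and stretch. None was called, and their median change was -0.40. Nr4a1 had 7.72, 8.07 and 7.91 in Con 1 to 3 and 7.33, 7.82 and 7.52 in RAP 1 to 3. It was lower in every pair, at -0.39, -0.25 and -0.39, but RAP 2 exceeded Con 1. Its change of -0.34 (SE 0.13, limma p 0.046) passed the p threshold, and its fold of 1.27 stood under the fold threshold of 1.3. Nr4a2 had pair differences of 0.13, -0.94 and -0.39 and a change of -0.40 (SE 0.24), and Nr4a3 had -0.50, -0.78 and 0.04 and a change of -0.41 (SE 0.20). The mean of the 3 genes lay above its 6-array mean on every control array and below it on every RAP array. Nr4a2 and Nr4a3 gave low signals, with means of 5.8 and 6.0 over the 6 arrays.

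The Klf genes encode zinc-finger factors, of which Klf2 and Klf4 are set by flow in endothelium. All 4 were lower in pairs 1 and 2 and higher in pair 3. Klf2 had pair differences of -1.01, -0.10 and 0.12 and a change of -0.33 (SE 0.26). Klf4 had -0.58, -1.02 and 0.19 and a change of -0.47 (SE 0.26), and its further probe set gave -0.76 (SE 0.35). Klf10, induced by TGF-beta, had -0.56, -0.94 and 0.48 and a change of -0.34 (SE 0.30), and Klf6 had -0.26, -0.29 and 0.26 and a change of -0.10 (SE 0.17). The pair medians of the list were -0.57, -0.62 and 0.22, so the sign turned with the pair. None was called.

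Dusp phosphatases remove phosphate from MAP kinases and close the feedback loop. Dusp5, a nuclear phosphatase of ERK, had 7.47, 7.63 and 8.05 in Con 1 to 3 and 7.84, 8.27 and 8.20 in RAP 1 to 3. It was higher in every pair, at 0.37, 0.64 and 0.14, but Con 3 exceeded RAP 1, and the change of 0.38 (95% interval -0.02 to 0.79, limma p 0.06) was not called. Dusp1, which acts on p38 and JNK, had pair differences of -0.88, -0.32 and 0.22 and a change of -0.33 (SE 0.24). Dusp2 and the cytoplasmic ERK phosphatase Dusp6 had changes of -0.16 (SE 0.17) and -0.27 (SE 0.18). The group therefore did not move one way, with a median of -0.22.

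The Gadd45 genes encode small stress proteins that act in DNA repair and on MAP kinase signalling. Their median change was -0.01. Gadd45g had 7.23, 7.17 and 8.51 in Con 1 to 3 and 7.54, 8.30 and 8.45 in RAP 1 to 3, with a change of 0.46 (SE 0.26). Con 3 stood well above the other control arrays, and the groups overlapped. Without Con 3 and the block the change was 0.90 and called, without pair 3 it was 0.72 and called, and without pair 2 it was 0.12 and not called. Gadd45a and Gadd45b had changes of -0.04 (SE 0.17) and -0.01 (SE 0.14).

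Of the remaining 11 genes, Ier3 fell and Rgs2 rose. Ier3 (IEX-1) encodes a stress-induced protein that modulates survival and ERK signalling. It had 10.32, 10.00 and 9.53 in Con 1 to 3 and 8.89, 8.39 and 9.38 in RAP 1 to 3. All RAP arrays lay below all control arrays, with the smallest gap in pair 3. The means were 9.95 ± 0.40 on the control arrays and 8.89 ± 0.49 on the RAP arrays (SD, n = 3 each). The change of -1.06 (SE 0.32, 95% interval -1.91 to -0.22, limma p 0.024, adjusted p 0.76) left it at 47.9% of control. It was called in 15 of 18 alternatives, and its change was -0.88 without pair 1 and -0.79 without pair 2, each not called.

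Rgs2 encodes a regulator of G-protein signalling that shortens the signal of Gq-coupled receptors. It had 7.37, 8.52 and 7.67 in Con 1 to 3 and 7.93, 8.88 and 8.60 in RAP 1 to 3. The groups overlapped since Con 2 lay above RAP 1, and pair 2 was high on both arrays, yet RAP exceeded control in each pair, by 0.56, 0.37 and 0.93. The change was 0.62 (SE 0.17, 95% interval 0.19 to 1.05, limma p 0.014, adjusted p 0.76), a level of 154% of control. It was called in 11 of 18 alternatives, and without the pair block alone its limma p was 0.12 and it was not called. In the unblocked fits with an array left out the change ran from 0.38 without Con 1 (limma p 0.34) to 0.96 without Con 2, which was called.

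Myc, the growth-promoting transcription factor, had 7.24, 7.72 and 7.56 in Con 1 to 3 and 6.44, 5.99 and 7.54 in RAP 1 to 3. RAP 2 was the lowest array, RAP 3 was level with its control, and the groups overlapped. The change of -0.85 (95% interval -1.75 to 0.05, limma p 0.059) was not called, although it was larger than that of most called genes. Without pair 3 it was -1.27 and called, and without pair 2 it was -0.41 (limma p 0.18) and not called. Zfp36 (tristetraprolin), which destabilises AU-rich mRNAs, had 9.46, 9.50 and 9.83 in Con 1 to 3 and 8.93, 9.80 and 8.79 in RAP 1 to 3. Pair 2 ran opposite to the others, and the change was -0.42 (SE 0.28).

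The other 7 gave small changes with no call. They were 0.22 (SE 0.13) for Maff, a small Maf protein, 0.07 (SE 0.14) for Sik1, a salt-inducible kinase, and 0.01 (SE 0.23) for Arc, a cytoskeletal protein best known from neurons. Trib1, a pseudokinase, had -0.32 (SE 0.21) and Btg1, an antiproliferative protein, -0.03 (SE 0.25). Ier2 and Ier5, immediate early response proteins, had -0.22 (SE 0.16) and -0.18 (SE 0.15).

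**Figure D3:**
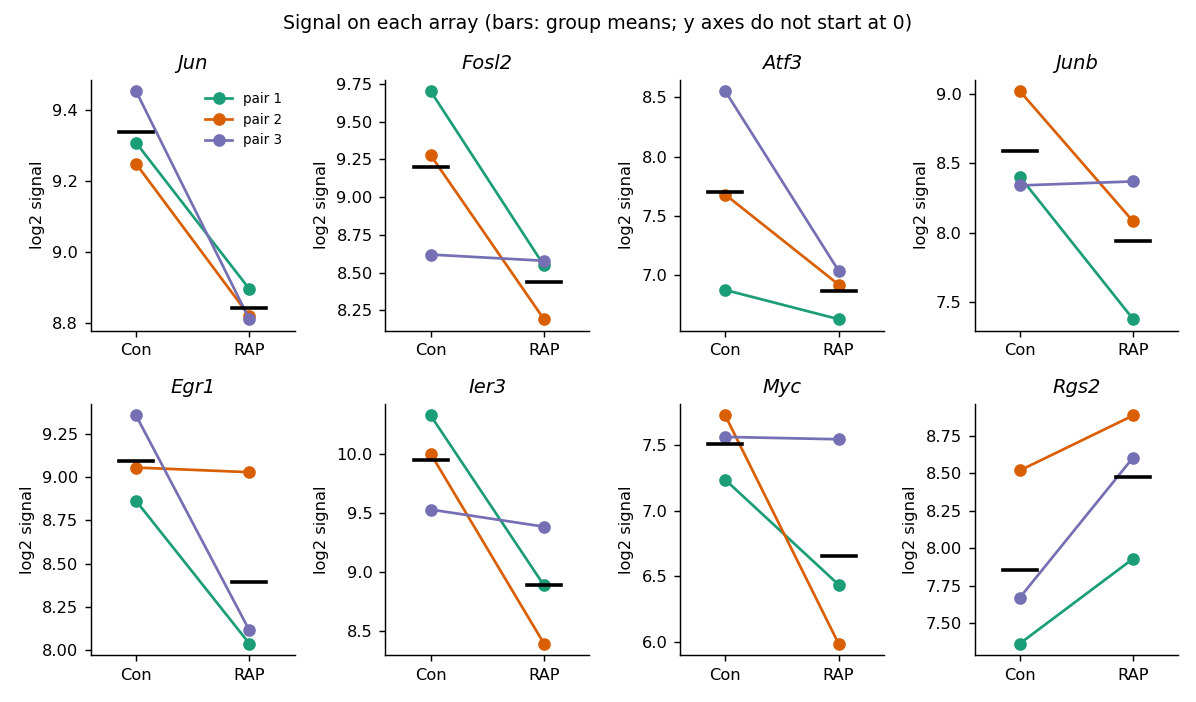
Log2 signal of 8 immediate-early genes on each array (vertical axis, not starting at 0) in the control (Con) and RAP atria, with lines joining the arrays of a pair and black bars for the group means. All 3 lines fall for Jun, and pair 3 is nearly flat for Fosl2, Junb, Ier3 and Myc.

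The calls varied with the samples kept. Leaving out 1 pair in turn gave 1, 3 and 11 genes called lower without pairs 1, 2 and 3, while the share of all genes called lower was 0.943%, 1.90% and 12.7%. Without the pair block, with all arrays kept, 4 were called lower, against 4.12% of all genes. Unblocked fits with 1 array left out called from 2 (without Con 2, with a median change of -0.17) to 8 (without Con 3 or without RAP 3) genes lower. The share of all genes called lower was 2.8% without Con 2, 8.55% without Con 3 and 5.42% without RAP 3. Without Con 3 the genes newly called were Jund (-0.45), Klf2 (-0.54), Klf4 (-0.65), Klf10 (-0.56), Trib1 (-0.53), Dusp5 (0.55) and Gadd45g. Without RAP 3 they were Junb (-0.86), Jund (-0.41), Klf4 (-0.62), Dusp1 (-0.50) and Myc (-1.29). Without Con 1 they were Jund (-0.40), Egr2 (-0.81) and Nr4a2 (-0.54), without RAP 1 Nr4a2 (-0.53) and Dusp5 (0.51), and without RAP 2 Nr4a1 (-0.48) and Zfp36 (-0.73). Without pair 3, in the blocked fit, Jund (-0.48), Nr4a3 (-0.64), Klf4 (-0.80), Klf10 (-0.75), Dusp1 (-0.60), Trib1 (-0.58) and Dusp5 (0.50) were newly called beside Junb, Myc and Gadd45g, and without pair 2 Zfp36 (-0.78) was. In each of the 18 alternatives the share called lower was larger among the immediate-early genes than among all genes. No called gene changed sign in any of the 18.

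**Figure D4:**
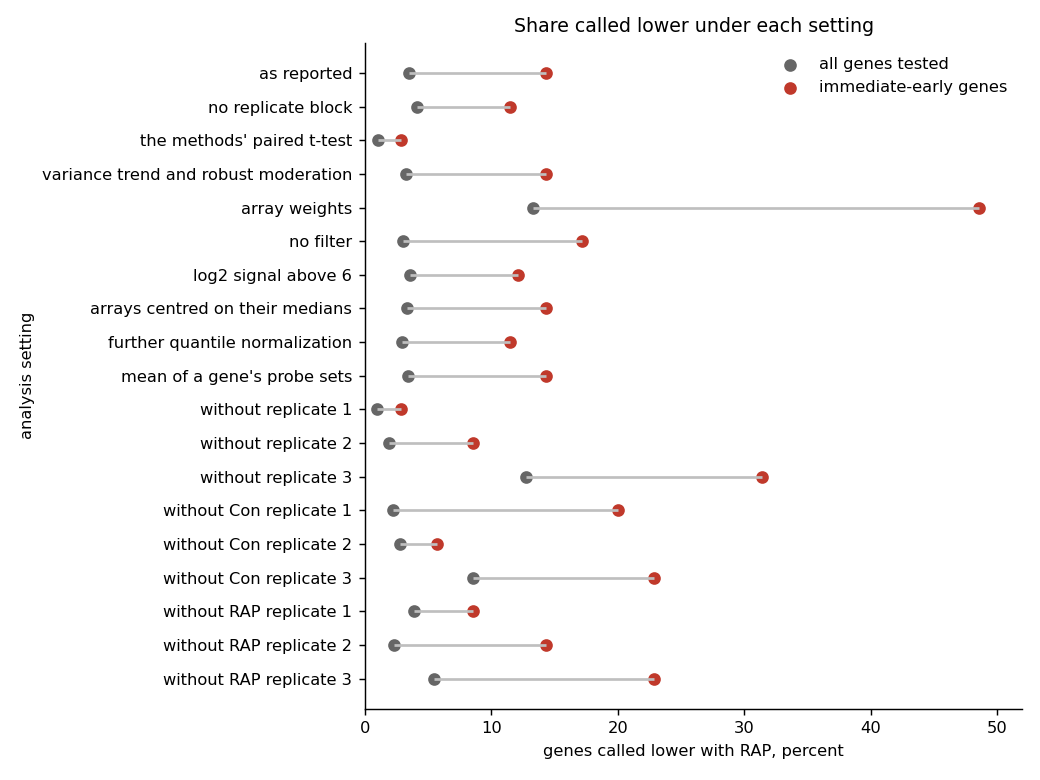
Share of genes called lower with RAP (horizontal axis, percent) in each analysis setting, for the immediate-early genes in red and all genes tested in grey. The red point lies to the right of the grey one in every setting, with 1 to 17 of the immediate-early genes called lower.

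Marker lists of the cells an atrium can hold moved with some of these values. All 11 macrophage genes were lower with RAP in pairs 1 and 2 and none was lower in pair 3, with pair medians of -0.54, -1.75 and 0.85 and no gene called. The mean macrophage level ran from -0.49 to 1.01 around its 6-array mean on the control arrays and from -0.75 to 0.34 on the RAP arrays. The pair medians had the same signs in 8 fibroblast genes (-0.51, -1.14 and 0.61), 8 mast cell genes (-0.70, -1.59 and 1.39) and 7 neutrophil genes (-0.17, -1.47 and 0.70). These are also the signs by pair of the Klf list and of Junb, Nr4a3, Dusp1 and Trib1, and the part of these cells in their values was not tested. Of 5 mesothelial genes, which mark the surface layer of the atrium, Prg4 (-2.20), Wt1 (-0.85) and Msln (-0.71) fell. Upk1b (-0.37) and Krt19 (0.06) were not called, and both were higher with RAP in pair 2, by 0.14 and 1.24. The mean of the list lay above its 6-array mean on every control array (0.06 to 0.85) and below it on every RAP array (-0.59 to -0.21). It was only 0.06 above on Con 2, where Upk1b and Krt19 had their lowest signals. Prg4 had the largest fall, and the separation of the list mean rested on it. Upk1b, Wt1 and Krt19 were lower on Con 2 (8.865, 8.933 and 9.249) than on RAP 1 (9.056, 9.226 and 9.467). Msln was higher, at 10.970 against 10.466. Without Prg4 the mean of the list was lower on Con 2 than on RAP 1. The AP-1 and Nr4a means also lay above on every control array and below on every RAP array. The part of the mesothelial list in their values was not tested. The neutrophil list was mixed, with 4, 5 and 2 of its 7 genes lower in pairs 1, 2 and 3. Lcn2 fell (-2.60) and was lower in every pair, at -1.36, -5.02 and -1.42, while Mpo was higher in every pair. Among 7 adipocyte genes Adipoq (1.09), Pck1 (0.95), Cidec (0.58) and Retn (0.46) rose, among 8 atrial muscle genes Myh6 (0.46) and Pam (0.43) rose, and among 7 smooth muscle and pericyte genes Cspg4 (0.45) rose. No gene was called among the macrophage, fibroblast, mast cell, red blood cell and ventricular lists, or among 9 endothelial, 7 lymphocyte and 7 Schwann cell and neuron markers. The part of these lists in the members' values was not tested.

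**Figure D5:**
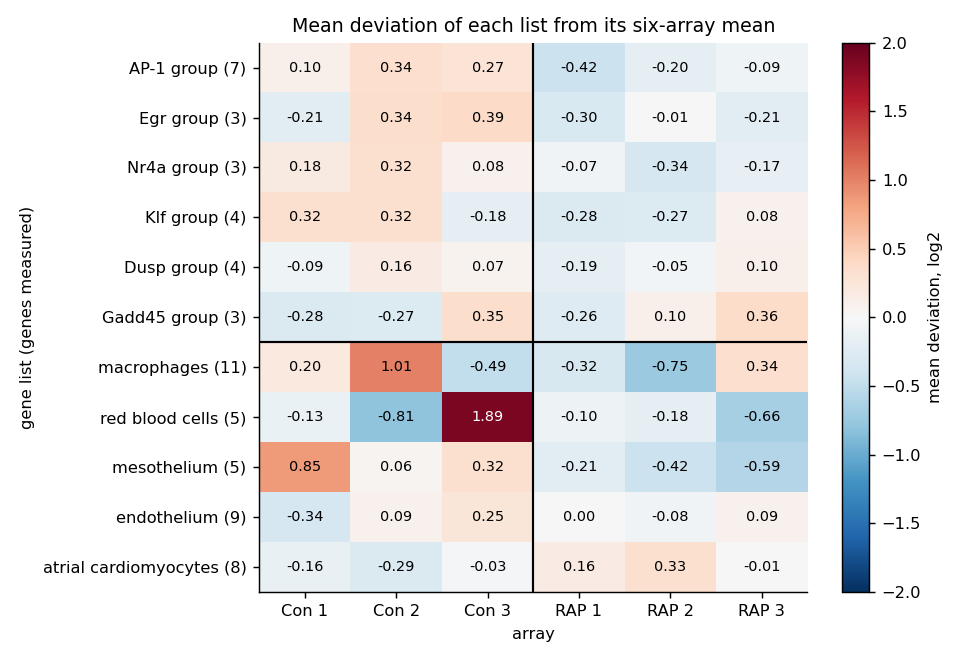
Mean deviation of each gene list from its own 6-array mean (colour and printed value, log2) on the 6 arrays, with immediate-early families above the line and cell type markers below. The AP-1 and Nr4a rows are positive on all control arrays and negative on all RAP arrays, and the macrophage row is highest on Con 2 and lowest on RAP 2.

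The regulators of these genes were measured too. A list of 5 genes held Srf, the ternary complex factors Elk1, Elk3 and Elk4, and Fhl2, which is also on the ventricular list. None of the 5 was called, and their median was -0.17. Srf stood at 0.14 (SE 0.16), Elk3 at -0.41 (SE 0.24) and Fhl2 at 0.46 (SE 0.25). None of 10 measured CREB, ATF and CRTC genes was called. Fitted changes were below 0 in 9 of the 10 (90.0%), against 51.2% of all genes. Creb1 stood at -0.22 and Crem at -0.20. Crtc3 had no probe set under its symbol here, and the paper lists it among the genes lower with RAP. None of 16 MAP kinase cascade genes was called. The arrays do not measure phosphorylation, by which these proteins are switched on.

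Other basic leucine zipper factors, which dimerise with AP-1 proteins or with each other, gave 3 genes that fell and 1 that rose among 15 measured. The large Maf protein Maf fell by 1.10 (SE 0.26, limma p 0.0094), Cebpd fell by 0.51 (SE 0.19) and Cebpb fell by 0.46 (SE 0.14), while the small Maf protein Mafk rose by 0.40 (SE 0.13). Of 57 further early response genes, 5 fell and 3 rose with a median of -0.03. Socs3, a brake on cytokine signalling, fell by 1.04 (SE 0.36) and the glucose transporter gene Slc2a1 fell by 0.72 (SE 0.23), while Homer1, a scaffold protein gene induced by activity, rose by 0.84 (SE 0.25). Among 34 relatives of the Klf, Dusp and other families 2 fell, Klf3 at -0.72 (SE 0.14) and Zfp36l1 at -0.59 (SE 0.17), and the median was -0.02.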

How the data were processed

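The deposited values are log2 probe set signals that the authors computed from Affymetrix Rat Gene 1.0 ST arrays of 6 left atria by robust multi-array averaging in Partek, whose version is not given in the sources used here. Array number limits the precision. Of 29214 probe sets, 15310 had 1 gene symbol in the platform annotation, 323 several and 13581 none. The 19907 with a signal above 5 on at least 1 array were tested with limma 3.58.1 in R 4.3.3, with group and pair as terms, and p-values were adjusted by Benjamini-Hochberg over all of them. This follows the paired design of the methods with moderated variances, on 2 residual and 2.76 prior degrees of freedom. Called means an unadjusted p below 0.05 and a fold above 1.3. The probe set with the highest mean stood for each gene. An exact permutation test of 3 against 3 that ignores the pairs cannot go below 0.1. One that keeps the pairs has a still higher floor, so none was used. Pairs follow the pair numbers in the labels and the paired surgery and pacing in the methods, and deviations from group means correlated at 0.223, -0.24 and -0.32 within pairs 1, 2 and 3. Every measured member is named. The membership rule uses no measured value, but members, gene lists and tests were chosen with earlier results of these data known. Alternatives changed the block, test, variance model, filter, scaling, probe set rule and samples kept; fits leaving out a single array had no pair block. Promoters came from RefSeq (GRCr8). Rat tissue was analysed, and replicates were separate animals.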

Additional observations from a re-analysis of the deposited data

How the results depend on the processing

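Direction held for all 6 called genes in the 18 alternatives, and 12 of the 35 were called in none of them or in the reported analysis. Among the 29 genes not called, 9 changed sign in at least 1. Genes called lower, 5 as reported, are given with the share of all genes called lower in brackets (3.45% as reported). They numbered 4 with no replicate block (4.12%), 1 with the methods' paired t-test (1.02%) and 5 with trended robust moderation (3.27%). In the paired t-test the gene was Jun (paired t-test p 0.022). Its paired t-test p was 0.17 for Fosl2, 0.15 for Atf3, 0.19 for Egr1, 0.15 for Ier3 and 0.065 for Rgs2, none called. Array weights gave 17 (13.3%), no filter 6 (3.04%) and a signal above 6 gave 4 of 33 (3.59%). Median centring gave 5 (3.32%), further quantile normalization 4 (2.9%) and the mean of probe sets 5 (3.39%). Genes called higher, 1 as reported (2.94% of all genes), numbered 0 without the replicate block (3.62%) and 0 with the paired t-test (1.06%). There were 2 with array weights (10.3%) and 2 with no filter (2.79%). Leaving out a pair, or a single array with the block dropped, gave 1 to 11 called lower and 0 to 3 called higher. The shares of all genes ran from 0.943% to 12.7% lower and from 0.516% to 9.49% higher. With array weights the Egr median was -0.024 and the Gadd45 median 0.10, and with samples left out they ran from -0.81 to -0.12 and from -0.12 to 0.15, the Klf median from -0.65 to -0.12, the Nr4a median from -0.53 to -0.23 and the Dusp median from -0.27 to -0.04. The median of all genes moved by at most 0.03. The cause of these shifts was not tested. The median of all members stayed between -0.37 and -0.17. The number of pairs, 3, limits every call. Signals near 5, as for Fosl1, Egr2 and Arc and on RAP 2 for Nr4a2 and Nr4a3, are little above background.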

Other observations

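Genes that answer to mechanical load in heart muscle form another list. Of 10 measured, Xirp2, an actin-binding repeat protein of the intercalated disc, rose by 1.21 on the log2 scale (SE 0.34) and Csrp3, a Z-disc protein, rose by 0.76 (SE 0.21) by limma. None fell, and the median change was 0.49. Its difference from the immediate-early genes was not tested.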
